A study of Rattus norvegicus with 60 samples.

Results

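Heat shock chaperones of the cytosol and mitochondria were followed in the mRNA of hippocampal CA1 tissue, and the methylated DNA over their genes was followed in parallel. The 10 genes were Hspa1b, Hspa8, Hsph1, Dnajb1, Bag3, Hsp90aa1, Hsp90ab1, Hspb1, Hspd1 and Hspe1, taken by gene symbol from the 22865 rows of the RNA data. They occupied 12 rows, because Hspa1b and Hspa8 each had 2. All animals were Sprague-Dawley rats of 90 to 120 d, with no transgene or drug named in the labels. RNA came from 8 threat and 6 place libraries at 1 h, 6 threat and 5 place libraries at 24 h, and 9 naive libraries with no time given. Times count from training in contextual recognition of threat. What threat and place animals went through is not described there, nor whether each library came from its own animal, so p-values measure the spread between libraries, which may be technical. Methylated DNA, captured with a methyl-binding domain protein (MBD), came at each time from 3 threat, 4 place and 3 naive libraries, with 3 uncaptured input libraries.

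Of these families, HSP70, HSP90 and HSP60 bind unfolded or partly folded proteins and release them in cycles of ATP binding and hydrolysis. HSP70 proteins work with J proteins, which deliver clients and trigger hydrolysis, and with exchange factors such as HSP110 and BAG proteins, which eject the nucleotide. HSP90 acts later on signalling proteins, including steroid receptors and kinases, and the HSP60 and HSP10 ring folds proteins imported into mitochondria. The transcription factor HSF1 drives the inducible members through heat shock elements, while neurons keep high constitutive levels of HSC70 and HSP90.

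Positions of the rows lay within rat build rn5, although the deposited table is titled with a mouse build. The 2 Hspa1b rows (ENSRNOG00000045654, chr20:4802581-4804506, and ENSRNOG00000050647, chr20:6958076-6960001, both on the minus strand) had the same length, 1926 nt. The 2 Hspa8 rows lay on chromosome 11 (ENSRNOG00000009920, chr11:17153206-17155257, plus strand) and chromosome 5 (ENSRNOG00000032585, chr5:103064144-103066245, minus strand). Each FPKM of a member corresponded, in all 34 libraries, to a whole number of reads within 0.05 of a read once the counted length was recovered. For the Hspa8 rows that counted length, 2052 and 2102 nt, equalled the whole gene span, as it did for the Hspa1b rows. In RefSeq's GRCr8 annotation Hspa8 lies between Clmp and Bsx, and 33 pseudogenes carry its name. Neither Hspa8 row had those neighbours in the RNA data; Robo2 and Lipi flanked the first, RGD1306186 and Oog3 the second. The 2 rows carry the symbol Hspa8 but may not be the Hspa8 gene itself, and their values are given as those of rows so named. How reads that match several near-identical copies were assigned is not given in the sources used here, so the split of reads within the Hspa1b pair and between the Hspa8 rows and other copies is uncertain. Hsp90ab1 (chr9:16706486-16712003, plus strand) overlapped the span of Aars2 on the other strand, whose mean was 2.56 FPKM.

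The promoters of 5 members are shown because Hspe1, Hsph1 and Hsp90ab1 were called higher, and Hspb1 or Bag3 lower, in comparisons described further on, and because HSF1 binds repeats of a short unit. RefSeq windows of GRCr8, 250 nt before to 50 nt after the gene start, were matched for 8 of the 10 members; Hspa1b and Hsp90aa1 are named only. Heat shock elements were searched on both strands as alternating units, GAANNTTC or TTCNNGAA for 2 units and GAANNTTCNNGAA or TTCNNGAANNTTC for 3, where a longer match contains shorter ones. The windows below run 5′ to 3′ along each gene, with matches in capitals: Hspe1 (chr9:64084077-64084376, plus strand), Hsph1 (chr12:10427118-10427417, plus strand), Hspb1 (chr12:26432252-26432551, minus strand), Bag3 (chr1:192533210-192533509, plus strand) and Hsp90ab1 (chr9:22930173-22930472, plus strand).
Hspe1: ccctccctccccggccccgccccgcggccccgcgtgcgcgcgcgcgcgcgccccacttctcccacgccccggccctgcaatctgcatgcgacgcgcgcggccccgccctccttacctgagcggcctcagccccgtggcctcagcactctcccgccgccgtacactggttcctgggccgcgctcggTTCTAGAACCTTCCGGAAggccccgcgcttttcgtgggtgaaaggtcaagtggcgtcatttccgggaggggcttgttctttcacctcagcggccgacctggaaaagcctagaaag
Hsph1: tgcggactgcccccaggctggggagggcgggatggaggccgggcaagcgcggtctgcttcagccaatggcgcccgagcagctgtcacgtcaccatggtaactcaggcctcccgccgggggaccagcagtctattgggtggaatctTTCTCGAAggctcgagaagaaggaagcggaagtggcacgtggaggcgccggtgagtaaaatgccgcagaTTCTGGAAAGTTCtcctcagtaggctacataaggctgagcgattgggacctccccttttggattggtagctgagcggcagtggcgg
Hspb1: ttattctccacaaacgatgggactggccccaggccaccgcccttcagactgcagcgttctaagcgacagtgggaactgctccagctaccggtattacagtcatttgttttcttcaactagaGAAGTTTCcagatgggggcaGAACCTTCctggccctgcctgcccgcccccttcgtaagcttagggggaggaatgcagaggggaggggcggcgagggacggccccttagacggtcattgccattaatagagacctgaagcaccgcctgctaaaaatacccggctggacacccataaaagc
Bag3: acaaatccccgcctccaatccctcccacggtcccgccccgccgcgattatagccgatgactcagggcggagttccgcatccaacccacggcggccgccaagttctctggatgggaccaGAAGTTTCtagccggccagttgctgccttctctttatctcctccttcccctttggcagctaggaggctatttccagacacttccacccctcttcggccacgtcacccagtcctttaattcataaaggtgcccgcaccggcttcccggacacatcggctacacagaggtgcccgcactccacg
Hsp90ab1: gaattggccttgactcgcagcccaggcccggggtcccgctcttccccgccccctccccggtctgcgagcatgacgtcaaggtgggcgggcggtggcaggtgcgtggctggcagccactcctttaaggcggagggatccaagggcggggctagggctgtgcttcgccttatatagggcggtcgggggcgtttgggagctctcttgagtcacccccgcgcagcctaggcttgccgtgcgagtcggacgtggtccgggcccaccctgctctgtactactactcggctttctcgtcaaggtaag

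A match of 2 units was present in 7 of the 8 windows, against 15.9% of all 33469 windows of this length, and a match of 3 units in 4 of 8, against 0.798%. Hspd1 and Hspe1, which lie head to head, share 1 stretch of 4 units. It reads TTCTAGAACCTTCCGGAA, starts at -65 nt from the Hspe1 start, and lies in the Hspd1 window (chr9:64083988-64084287, minus strand) on the other strand. Hsph1 held 3 units, TTCTGGAAAGTTC, at -36 nt from its start. The RefSeq Hspa8 window (chr8:50080264-50080563, plus strand) held 2 such stretches, GAAAGTTCCAGAA and TTCTGGAAGGTTC, at -213 and -55 nt from the start. Dnajb1 and Hspb1 had 2 matches of 2 units each, Bag3 had 1 and Hsp90ab1 had none in this window. A match describes the letters of the window and is not a measured binding site.

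Levels spanned a wide range. Per length, the mean over the 34 libraries was 372 FPKM for Hsp90ab1, the HSP90 beta isoform, which ranked 51 of 13153 tested genes, and 182 FPKM for Hsp90aa1, the alpha isoform. Hsph1, the HSP110 exchange factor, stood at 62.5 FPKM, the mitochondrial cochaperonin Hspe1 at 48.7 and its partner Hspd1 at 30.2 FPKM. The Hspa8 rows had 41.0 (chromosome 11) and 26.3 FPKM (chromosome 5), and the J protein Dnajb1 had 19.1 FPKM. Bag3, an exchange factor that routes clients to autophagy, had 5.13, the small heat shock protein Hspb1 4.76, and the inducible HSP70 rows of Hspa1b 2.22 and 2.41 FPKM. Library totals were 38.0 to 55.1 M reads, as read from the size of a single read in each library. The members' median counts were 40998 reads for Hsp90ab1 but 177 and 183 for the Hspa1b rows and 167 for Hspb1, where counting alone gives a relative error of 7.52%, 7.39% and 7.73%. All 12 rows passed the filter of 1 FPKM in 5 libraries.

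Several libraries stood apart in markers of neighbouring tissue. The summed FPKM of the 9 choroid plexus rows was 6762 and 4063 in threat 1 h replicates 4 and 7, and at most 312.3 in every other library. Place 1 h replicate 3 had the highest sum of CA2 and CA3 markers, 570.6, against 310.6 to 376.3 in the other place 1 h libraries, and naive replicate 4 the lowest sum of CA1 markers, 132.1, against 236.5 to 376.6 in the other naive ones. The 9 naive libraries split in 2 by replicate number, 5 to 9 and 1 to 4. That division was chosen with the values already known, is no batch named in the labels, and is used below because many genes differ across it; 2212 of 13153 tested genes (16.8%) had no overlap between the blocks. In bulk tissue, fewer cells of a type and less RNA per cell cannot be told apart.

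Counts of called rows, at a limma adjusted p under 0.05 over all 13153 genes, set the frame. Threat 1 h libraries had 3 of 12 rows higher than naive ones and 0 lower, against 0.928% of all genes called (0.806% higher, 0.122% lower). Both Hspa1b rows are among these 3. Place 1 h libraries had 0 called, against 0.129% (0.0912% higher, 0.038% lower). At an unadjusted limma p under 0.05 place 1 h libraries had 6 rows, and the share of all genes at that threshold is not given here. Threat 24 h libraries had 2 rows higher than naive ones (10.1% of all genes called, 4.32% higher and 5.77% lower). Place 24 h libraries had 0 (5.05%, 1.49% higher and 3.56% lower). Their 5 rows at an unadjusted limma p under 0.05 likewise have no share of all genes beside them. At 24 h against 1 h, 2 rows were higher and 4 lower in threat libraries (29.3%, 12.5% higher and 16.8% lower), and 1 was higher and 1 lower in place libraries (13.3%, 6.61% higher and 6.64% lower). The split of all genes called over naive moved with the scaling: 106 higher and 16 lower in threat 1 h became 58 and 33 with median-ratio scaling and 45 and 34 with quantile normalization. In threat 24 h the 1327 genes called, 759 of them lower, became 458 higher and 830 lower with median-ratio scaling and 263 and 691 with quantile normalization. In place 24 h, 196 higher and 468 lower became 131 and 523, and 79 and 464. Other splits moved too. In threat 24 h against threat 1 h, 1640 higher and 2215 lower became 1992 and 1999, and 1876 and 1766. Between the naive blocks 1132 and 1369 became 1334 and 1291, and 1249 and 1306. In place 24 h against place 1 h, 869 and 874 became 801 and 936, and 741 and 851. Naive libraries 5 to 9 had 6 rows higher and 1 lower than naive libraries 1 to 4 (19%, 8.61% higher and 10.4% lower). Both Hspa8 rows are among these 6, and both Hspa1b rows among the 4 lower in threat 24 h against 1 h. Within each pair the rows moved together over all libraries (r = 0.935 and 0.896), so 1 symbol counts as 2 rows. With only naive 1 to 4 as the comparison, threat 1 h libraries had 0 rows called (0.236% of all genes), place 1 h libraries 0 (0.0456%), threat 24 h libraries 7 higher and 1 lower (30.2%) and place 24 h libraries 8 higher (24.4%). With only naive 5 to 9, threat and place 1 h libraries each had 4 higher and 2 lower (20.1% and 12.8%). Threat and place 24 h libraries had 0 (0.509% and 0.076%). By these shares the 1 h libraries differed least from naive 1 to 4 and the 24 h libraries least from naive 5 to 9. How far the differences between 24 h and 1 h follow the same unlabelled split was not tested. The median log2 difference of the 12 rows was 0.065 for threat 1 h and 0.078 for place 1 h over naive, beside 0.020 and 0.0023 over all genes. It was 0.13 for threat 24 h and 0.12 for place 24 h over naive, beside 0.011 and 0.018, and 0.16 between the naive blocks, beside -0.0038. The comparisons with naive share the same naive libraries. Where 19% to 29.3% of all genes were called, a share of members called is read against that background.

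**Figure D1:**
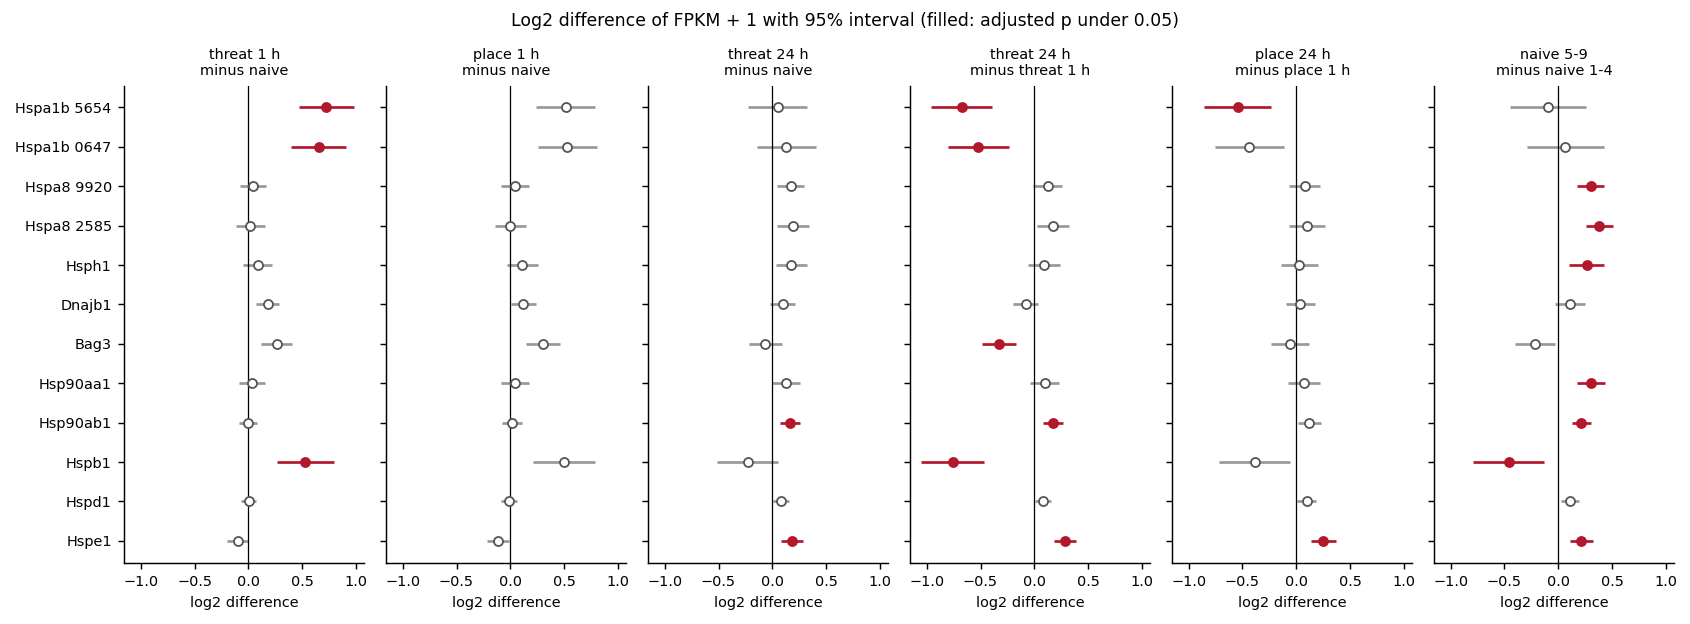
Log2 differences of FPKM + 1 (horizontal axis) with 95% intervals for the 12 member rows (vertical axis) in 6 comparisons; filled points passed an adjusted p of 0.05 in limma. Hspa1b, Hspb1 and Bag3 lie to the right of 0 at 1 h and to the left of 0 in the threat 24 h against threat 1 h panel, and Hspe1 does the opposite.

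Hspa1b, the stress-inducible HSP70, had the largest difference of any member at 1 h over all naive libraries, in both of its rows. The row ENSRNOG00000045654 had a lowest, median and highest value of 2.37, 2.90 and 6.29 FPKM in threat 1 h libraries. These were 1.76, 2.76 and 3.53 FPKM in place 1 h libraries and 1.15, 1.64 and 2.00 FPKM in naive libraries. Every threat 1 h library was above every naive library, a separation that 0.144% of tested genes showed, while the lowest place library lay within the naive range. The row rose by 0.72 ± 0.12 log2 in threat 1 h over naive libraries (SE, n = 8 and 9; limma adjusted p = 0.00144, rank 13 of 13153). It was 0.51 higher in place 1 h libraries, which did not pass (limma adjusted p = 0.155, unadjusted 5.65e-04).

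The row ENSRNOG00000050647 had a lowest, median and highest value of 1.90, 3.20 and 6.37 FPKM in threat 1 h libraries and of 1.85, 2.92 and 4.42 FPKM in place 1 h libraries, against 1.36, 1.76 and 1.99 FPKM in naive libraries. The lowest threat and place libraries fell inside the naive range and all others were above it. It rose by 0.65 ± 0.13 log2 in threat 1 h over naive libraries (SE; limma adjusted p = 0.00676), a call lost when only the groups compared were fitted (0.0508). In place 1 h it was 0.53 higher than naive and did not pass (limma adjusted p = 0.139). The 2 rows had a ratio of 0.552 to 1.26 (median 0.902) across libraries. Spread in threat 1 h libraries exceeded counting: the coefficient of variation of ENSRNOG00000045654 was 40.9%, against 5.84% from counting alone. Threat 1 h replicate 7, one of the choroid-rich pair, was the highest library in both rows, and replicate 5, whose choroid sum was 37.1, was second with 4.70 and 4.32 FPKM. Without replicates 4 and 7 the rows were 0.60 and 0.50 higher than naive (limma adjusted p = 0.00896 and 0.0464).

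At 24 h both Hspa1b rows were near naive levels. ENSRNOG00000045654 had a lowest, median and highest value of 1.28, 1.56 and 2.23 FPKM in threat 24 h libraries and measured 2.11, 1.69, 1.39, 1.08 and 1.4 FPKM in place 24 h libraries. Every threat 24 h library lay below every threat 1 h library, and 10.9% of tested genes did not overlap between these groups. The row fell by 0.68 ± 0.14 log2 in threat 24 h against threat 1 h (SE, n = 6 and 8, limma adjusted p = 4.54e-04). In place 24 h against place 1 h it fell by 0.54 ± 0.15 (SE, n = 5 and 6; limma adjusted p = 0.0177). ENSRNOG00000050647 fell by 0.52 in threat 24 h against threat 1 h (limma adjusted p = 0.00531) and was -0.44 in the place comparison, which did not pass (limma adjusted p = 0.059). The naive blocks did not separate these rows. Naive libraries 5 to 9 averaged 1.52 ± 0.34 and naive libraries 1 to 4 averaged 1.67 ± 0.30 FPKM for the first row (SD, n = 5 and 4). The log2 difference was -0.09 with a 95% interval of -0.44 to 0.26. Against naive libraries 5 to 9 alone the rows rose by 0.77 and 0.62 at 1 h in threat libraries (limma adjusted p = 3.69e-04 and 0.00315) and by 0.55 and 0.50 in place libraries (0.0166 and 0.0322). Against naive libraries 1 to 4 alone they were 0.67 and 0.69 higher in threat libraries but did not pass (limma adjusted p = 0.0592 and 0.0585).

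**Figure D2:**
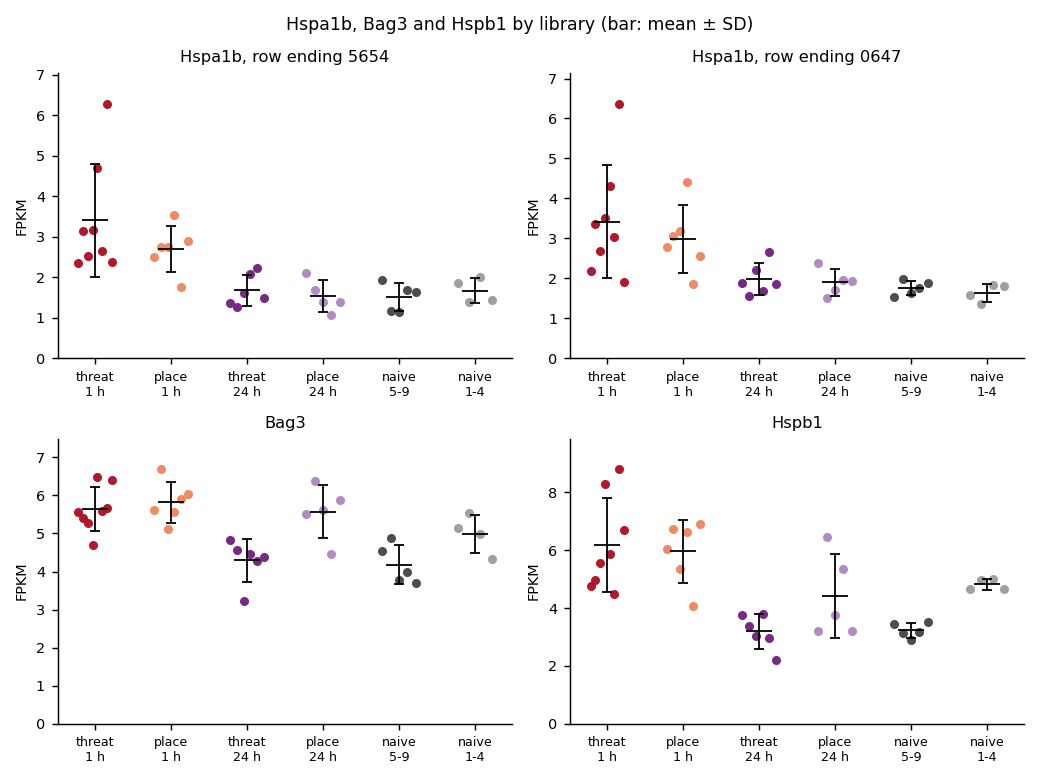
FPKM (vertical axis, from 0) of the 2 Hspa1b rows, Bag3 and Hspb1 in each of the 34 RNA libraries, by group, with naive libraries shown as replicates 5 to 9 and 1 to 4; bars give the mean ± SD. All threat 1 h libraries of the Hspa1b row ENSRNOG00000045654 sit at 2.37 FPKM or above, and Hspb1 in naive replicates 1 to 4 sits at 4.64 to 5.01 FPKM, above naive replicates 5 to 9. Between these naive blocks 16.8% of all tested genes did not overlap.

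The 2 rows named Hspa8, the symbol of the constitutive HSC70, were not called at 1 h over all naive libraries and were both called between the naive blocks. Neither row has the neighbours that RefSeq gives Hspa8, so their values may not be those of the HSC70 gene. Its chromosome 11 row measured 41.0, 41.4, 42.4, 45.9 and 43.6 FPKM in naive replicates 5 to 9 and 35.1, 36.3, 35.4 and 31.7 FPKM in replicates 1 to 4. The chromosome 5 row measured 27.8, 28.0, 28.0, 30.1 and 28.6 FPKM in naive replicates 5 to 9 and 22.3, 22.1, 23.9 and 18.6 FPKM in replicates 1 to 4. The blocks did not overlap in either row, as in 16.8% of all tested genes, and the rows were higher by 0.30 ± 0.06 and 0.38 ± 0.06 log2 in replicates 5 to 9 (SE; limma adjusted p = 6.63e-04 and 5.16e-05). Threat 1 h libraries ranged over 37.2 to 42.9 FPKM in the chromosome 11 row, which is above all of naive replicates 1 to 4 and partly below naive replicates 5 to 9. Threat 1 h libraries differed from all naive libraries by 0.04 and 0.02 log2 (limma adjusted p = 0.758 and 0.933). The chromosome 5 row was 0.15 lower in threat 1 h than in naive 5 to 9 (limma adjusted p = 0.0365) and 0.23 higher than in naive 1 to 4 (0.083). At 24 h the rows stood at 43.9 ± 1.70 and 29.0 ± 1.5 FPKM in threat libraries and at 42.5 ± 2.12 and 27.1 ± 1.10 in place libraries (SD, n = 6 and 5). Over all naive libraries the threat differences of 0.17 and 0.19 did not pass (limma adjusted p = 0.0837 and 0.0818), but did without naive replicate 8 or 9 (0.0325 to 0.0472). Against naive 1 to 4 both rows were called higher in threat and place libraries, by 0.29 to 0.40 log2, and against naive 5 to 9 neither was, at -0.07 to 0.03.

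A row with no symbol, ENSRNOG00000034066 (chr8:43478238-43480374, plus strand), was looked at after values were seen because Bsx follows it in the RNA data as it follows Hspa8 in RefSeq. It averaged 9.20 ± 0.59 FPKM in naive replicates 5 to 9 and 7.65 ± 0.44 in replicates 1 to 4 (SD, n = 5 and 4). Over all libraries it ranged from 7.04 to 10.2 FPKM. Its log level had Pearson r = 0.79 and 0.75 with the Hspa8 rows over the 34 libraries, as a description. The annotation used here does not name it.

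Hsph1, the HSP110 exchange factor of HSP70, followed the same block pattern. It measured 58.6, 69.9, 63.4, 63.1 and 62.5 FPKM in naive replicates 5 to 9 and 58.3, 51.1, 54.9 and 46.7 FPKM in replicates 1 to 4. The highest of replicates 1 to 4 lay just under the lowest of 5 to 9, and 16.8% of tested genes did not overlap between these blocks. The difference was 0.27 ± 0.08 log2 (SE, limma adjusted p = 0.0171). Without naive replicate 4, the library lowest in CA1 markers, it was 0.21 and did not pass (limma adjusted p = 0.102). Threat libraries had 66.2 ± 4.05 FPKM at 24 h and 62.0 ± 3.23 at 1 h, place libraries 64.7 ± 7.30 at 24 h and 63.4 ± 7.80 at 1 h, and naive libraries 58.7 ± 7.05 FPKM (SD). No comparison with all naive libraries called Hsph1 in the reported fit. In threat 24 h it passed without naive replicate 6, at 0.21 (limma adjusted p = 0.042), and array weights, which give each library its own precision, called it in threat and place at 24 h (0.0377 and 0.0392). Against naive 1 to 4 it was called higher at 24 h, by 0.32 in threat and 0.29 in place libraries (limma adjusted p = 0.00153 and 0.00775).

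Dnajb1, the J protein that pairs with inducible HSP70, was not called in the reported fit in any comparison with all naive libraries. It had a lowest, median and highest value of 17.3, 20.0 and 24.2 FPKM in threat 1 h libraries and of 18, 19.4 and 20.5 FPKM in place 1 h libraries, against 14.2, 17.8 and 19.5 FPKM in naive libraries. The ranges overlapped, and the differences were 0.18 ± 0.05 and 0.12 ± 0.06 log2 (SE; limma adjusted p = 0.0856 and 0.486). The threat difference passed without threat 1 h replicate 3, at 0.21 (limma adjusted p = 0.0342), and with array weights (0.0254). The highest value, 24.2 FPKM, was again threat 1 h replicate 7. Place 24 h libraries measured 20.7, 20.3, 20.4, 17.5 and 20.4 FPKM, and were called 0.22 higher than naive 1 to 4 (limma adjusted p = 0.0201) but not against naive 5 to 9 (0.11, 0.538); over all naive libraries they passed with array weights (0.0245).

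Bag3 was called lower in threat 24 h than in threat 1 h libraries. Its lowest, median and highest values were 4.70, 5.58 and 6.48 FPKM in threat 1 h libraries and 5.11, 5.76 and 6.69 FPKM in place 1 h libraries, against 3.70, 4.54 and 5.54 FPKM in naive libraries. The groups overlapped, and the differences of 0.26 ± 0.07 and 0.30 ± 0.08 log2 did not pass over all naive libraries (SE; limma adjusted p = 0.0617 and 0.123). The threat difference passed without any one of naive replicates 1 to 4 (limma adjusted p = 0.0297 to 0.049) and the place difference without naive replicate 2 (0.0497), and both with array weights (0.0184 and 0.0333). Against naive 5 to 9 alone Bag3 rose by 0.36 and 0.40 (limma adjusted p = 0.00117 and 0.00141), and against naive 1 to 4 it was 0.15 and 0.19 higher (0.654 and 0.535). Threat 24 h libraries had a lowest, median and highest value of 3.22, 4.43 and 4.82 FPKM. Place 24 h libraries measured 5.52, 6.37, 5.62, 4.46 and 5.89 FPKM. Bag3 fell by 0.33 ± 0.08 log2 in threat 24 h against threat 1 h (SE; limma adjusted p = 0.002) and was -0.06 in place 24 h against place 1 h (0.712). Threat 24 h libraries were 0.31 lower than place 24 h libraries, with 1 place library inside the threat range. That difference ranked 4 of 13153 genes by p (unadjusted p = 0.00115) and did not pass (limma adjusted p = 1), and neither did the interaction of training and time, at -0.27 (limma adjusted p = 1).

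Both HSP90 isoforms were called between the naive blocks, and Hsp90ab1 was also called in threat 24 h libraries. Hsp90ab1 measured 372, 373, 390, 387 and 388 FPKM in naive replicates 5 to 9 and 338, 348, 328 and 304 FPKM in replicates 1 to 4, with no overlap (16.8% of all tested genes) and a difference of 0.21 ± 0.04 log2 (SE; limma adjusted p = 7.24e-04). Its lowest, median and highest values were 390.4, 400.2 and 413 FPKM in threat 24 h libraries and 337, 355 and 369 FPKM in threat 1 h libraries, against 304, 372 and 389.9 FPKM in naive libraries. Every threat 24 h library was above every naive and every threat 1 h library, a separation seen in 1.6% and 10.9% of tested genes. Hsp90ab1 rose by 0.17 ± 0.05 log2 in threat 24 h over naive (SE, n = 6 and 9; limma adjusted p = 0.0183) and by 0.17 ± 0.05 over threat 1 h (SE; 0.00611). With quantile normalization these differences were 0.096 and 0.085 and did not pass (limma adjusted p = 0.129 and 0.111), and with only the groups compared the naive comparison did not pass either (0.0982). Place 24 h libraries measured 411, 386, 399, 379 and 397 FPKM and were 0.14 higher than naive and 0.12 higher than place 1 h, neither of which passed (limma adjusted p = 0.0804 and 0.118). Without naive replicate 7 or 9 the first was 0.16 and passed (limma adjusted p = 0.0466 and 0.0451). Place 1 h replicate 3 alone reached 409 FPKM at 1 h; without it the difference from place 1 h was 0.16 and passed (limma adjusted p = 0.0327). The block mattered to the naive comparison: threat 24 h libraries were 0.29 higher than naive 1 to 4 (limma adjusted p = 4.29e-06) and 0.07 higher than naive 5 to 9 (0.536).

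Hsp90aa1 measured 184, 178, 209, 190 and 201 FPKM in naive replicates 5 to 9 and 151, 164, 162 and 144 FPKM in replicates 1 to 4. The blocks did not overlap, which held for 16.8% of all tested genes, and differed by 0.30 ± 0.06 log2 (SE; limma adjusted p = 6.63e-04). No comparison with all naive libraries called it: threat libraries averaged 191 ± 13 FPKM at 24 h and 179 ± 12 at 1 h, place libraries 189.8 ± 7.35 at 24 h and 181 ± 13 at 1 h, and naive libraries 176 ± 22.1 (SD). At 24 h it was 0.30 higher in threat and 0.29 higher in place than in naive 1 to 4 (limma adjusted p = 2.51e-04 and 7.74e-04), and -0.01 and -0.02 against naive 5 to 9 (0.982 and 0.933).

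**Figure D3:**
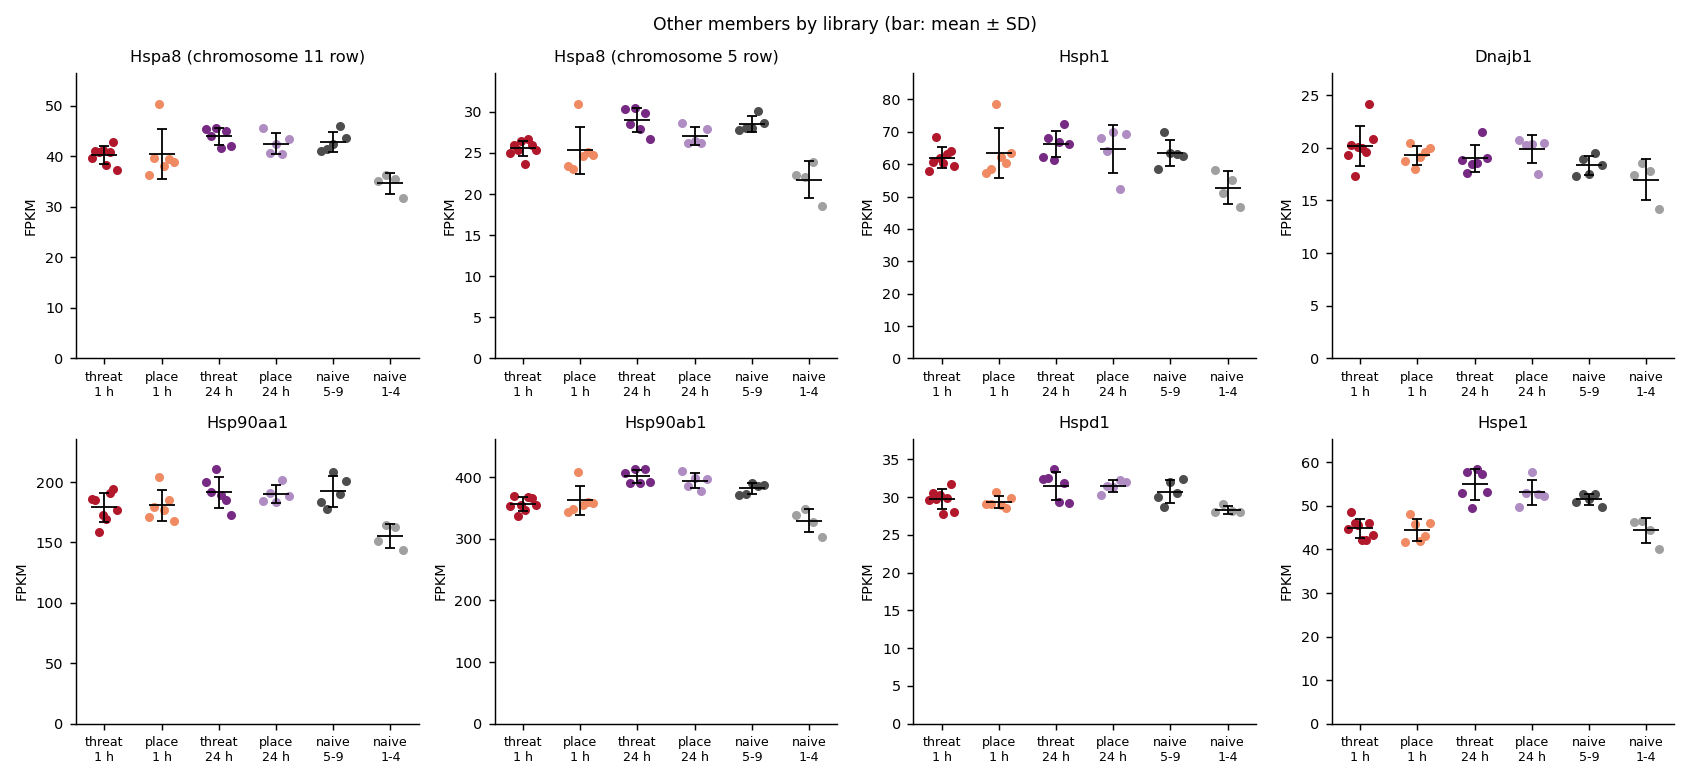
FPKM (vertical axis, from 0) of the 2 Hspa8 rows, Hsph1, Dnajb1, Hsp90aa1, Hsp90ab1, Hspd1 and Hspe1 in each RNA library, by group, with bars for the mean ± SD. Naive replicates 1 to 4 lie below naive replicates 5 to 9 without overlap for both Hspa8 rows, Hsph1, Hsp90aa1, Hsp90ab1 and Hspe1; 16.8% of all tested genes did not overlap between these blocks.

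Hspb1, a small heat shock protein that holds unfolded proteins, was lower where most abundant members were higher. It measured 3.44, 3.13, 2.88, 3.17 and 3.53 FPKM in naive replicates 5 to 9 and 4.66, 4.97, 5.01 and 4.64 FPKM in replicates 1 to 4. The blocks did not overlap, against a background of 16.8% of tested genes, and the difference was -0.46 ± 0.16 log2 (SE; limma adjusted p = 0.044). That call was lost with quantile normalization or no filter (limma adjusted p = 0.0587 and 0.0675) and without any one naive library other than replicate 5 (0.0554 to 0.0888). Its lowest, median and highest values were 4.47, 5.72 and 8.81 FPKM in threat 1 h libraries. They were 4.06, 6.34 and 6.92 FPKM in place 1 h libraries and 2.88, 3.53 and 5.01 FPKM in naive libraries. It rose by 0.53 ± 0.13 log2 in threat 1 h over naive (SE; limma adjusted p = 0.0419) and was 0.50 higher in place 1 h (0.182). Against naive 1 to 4 alone the threat difference was 0.27 (limma adjusted p = 0.626) and against naive 5 to 9 alone 0.73 (3.04e-04). The 2 highest values, 8.30 and 8.81 FPKM, were threat 1 h replicates 4 and 7, the choroid-rich pair; without them the difference was 0.38 and did not pass (limma adjusted p = 0.229). The call was also lost without any one of naive replicates 5 to 9 or of threat 1 h replicates 4, 5, 7 and 8 (limma adjusted p = 0.057 to 0.106), and with median-ratio scaling (0.0501), quantile normalization (0.0571), no filter (0.0591) or only the groups compared (0.113). Threat 24 h libraries had a lowest, median and highest value of 2.21, 3.21 and 3.79 FPKM, all below every threat 1 h library. Between these groups 10.9% of tested genes did not overlap. Hspb1 fell by 0.76 ± 0.15 log2 in threat 24 h against threat 1 h (SE; limma adjusted p = 2.29e-04), and without the choroid-rich pair by 0.61 (0.00227). Place 24 h libraries measured 3.21, 6.48, 3.76, 5.36 and 3.22 FPKM, overlapping place 1 h, and were -0.39 against them (limma adjusted p = 0.11).

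Endothelial and mural markers, 1 of 11 marker lists, were lower alongside Hspb1 in 2 comparisons. Of 11 such rows tested, 7 were lower in threat 24 h than in threat 1 h libraries (16.8% of all genes). In naive 5 to 9 against naive 1 to 4, 5 were lower (10.4% of all genes), with 0 higher in both comparisons. In threat 1 h over naive 0 of 11 were called, with a median log2 difference of 0.028. Only 0.928% of all genes were called there, so 0 of 11 decides nothing. In threat 24 h over naive, where Hspb1 was not called, 5 of 11 were lower (5.77% of all genes). Their summed level was 90.02 to 111 FPKM in threat 24 h and 105 to 142 FPKM in threat 1 h libraries, and 103 to 125 FPKM in naive 5 to 9 and 125 to 152 FPKM in naive 1 to 4. Their part in the Hspb1 differences was not tested.

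The mitochondrial pair differed in how far each moved. Hspe1, the HSP10 lid of the ring, had a lowest, median and highest value of 49.5, 55.3 and 58.5 FPKM in threat 24 h libraries and of 42.1, 45.2 and 48.6 FPKM in threat 1 h libraries. Place 24 h libraries measured 49.8, 52.9, 57.8, 52.8 and 52.3 FPKM, and place 1 h libraries had a lowest, median and highest value of 41.7, 44.4 and 48.1 FPKM. In both groups every 24 h library was above every 1 h library, which 10.9% (threat) and 8.43% (place) of tested genes showed. Hspe1 was 0.28 ± 0.05 log2 higher in threat 24 h than in threat 1 h (SE, limma adjusted p = 1.48e-04). In place 24 h it was 0.25 ± 0.06 higher than in place 1 h (SE, limma adjusted p = 0.00479). Whether this follows the split seen between the naive blocks was not tested. Hspe1 averaged 44.9 FPKM in threat 1 h, 44.5 in place 1 h and 44.4 in naive replicates 1 to 4. It averaged 54.9 FPKM in threat 24 h, 53.1 in place 24 h and 51.5 in naive replicates 5 to 9. It measured 50.8, 52.7, 51.5, 52.8 and 49.7 FPKM in naive replicates 5 to 9 and 46.3, 46.6, 44.4 and 40.2 FPKM in replicates 1 to 4, again without overlap (16.8% of tested genes in this split), a difference of 0.21 ± 0.05 (SE; limma adjusted p = 0.00439). Over all naive libraries it rose by 0.18 in threat 24 h (limma adjusted p = 0.0193) and was 0.14 higher in place 24 h (0.13). The threat call was lost without threat 24 h replicate 2, 4 or 5 (limma adjusted p = 0.0533 to 0.0556), when only threat 24 h and naive libraries were fitted (0.0902), and with quantile normalization (0.0971). Against naive 5 to 9 alone it was 0.09 higher in threat 24 h (limma adjusted p = 0.52) and 0.20 lower in threat 1 h (0.00216).

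Hspd1, the HSP60 subunit, stayed within a narrow range of 27.7 to 33.7 FPKM in all libraries. It had 31.5 ± 1.83 FPKM in threat 24 h and 29.7 ± 1.31 in threat 1 h libraries (SD). Place libraries had 31.5 ± 0.76 FPKM at 24 h and 29.4 ± 0.77 at 1 h, and naive libraries 29.7 ± 1.66 (SD). Naive replicates 5 to 9 and 1 to 4 averaged 30.7 ± 1.49 and 28.3 ± 0.54 FPKM (SD, n = 5 and 4), and overlapped. Its difference was 0.08 in threat 24 h against threat 1 h and 0.11 between the naive blocks, neither of which passed (limma adjusted p = 0.0986 and 0.0607). The first passed with median-ratio scaling or without threat 24 h replicate 6 (limma adjusted p = 0.0435 and 0.0472), and the second with median-ratio scaling, with array weights or without naive replicate 6 (0.0327, 0.00991 and 0.0258). Place 24 h against place 1 h passed with array weights, at 0.11 (limma adjusted p = 0.0263). Against naive 1 to 4 Hspd1 was called higher by 0.15 in threat and place libraries at 24 h (limma adjusted p = 0.00611 and 0.0102).

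Threat and place libraries were not told apart by any member. The direct comparisons called 0 of 12 rows at 1 h and 0 of 12 at 24 h, with 0% of all genes called, and the interaction of training and time called 0 rows, also with 0%. At an unadjusted limma p under 0.05 there were no rows at 1 h and 1 row for the interaction (Bag3). At 24 h there were 2 rows, Bag3 at -0.31 and Hspb1 at -0.34 in threat against place. The share of all genes at that unadjusted threshold is not given here. The 95% interval of threat 1 h over place 1 h for Hspa1b was -0.07 to 0.49 log2 for ENSRNOG00000045654 and -0.16 to 0.40 for ENSRNOG00000050647.

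Related chaperones were read from 9 lists, chosen with earlier results of these data known, that had 86 rows tested. At 1 h none of the 86 was called in threat or in place libraries against naive (0.928% and 0.129% of all genes). In threat libraries their median log2 difference was -0.0011. The other small heat shock proteins were among these rows (Cryab 0.25, Hspb8 0.15 in threat libraries, limma adjusted p = 0.346 and 0.313). Hsf1, the factor that drives the inducible members, was 0.21 higher at 1 h in threat over naive (limma adjusted p = 0.15). In threat 24 h over naive 15 rows were higher and 3 lower (4.32% and 5.77% of all genes), and in place 24 h over naive 9 were higher and 2 lower (1.49% and 3.56%). In threat 24 h against threat 1 h 28 rows were higher and 4 lower (12.5% and 16.8% of all genes), with a median of 0.079, beside -0.010 over all genes. In place 24 h against place 1 h 15 were higher and 2 lower (6.61% and 6.64%), with a median of 0.097. Between the naive blocks 25 were higher and 2 lower in replicates 5 to 9 (8.61% and 10.4% of all genes), with a median of 0.10, beside -0.0038 over all genes.

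The TRiC chaperonin, which folds actin and tubulin, had 7 of 8 subunits higher in threat 24 h against threat 1 h (12.5% of all genes) and 5 of 8 higher in naive 5 to 9 against naive 1 to 4 (8.61%). In place 24 h against place 1 h 1 of 8 was higher (6.61% of all genes). Over naive 6 of 8 were higher in threat 24 h and 0 of 8 in place 24 h (4.32% and 1.49% of all genes). Their median log2 differences over naive were 0.15 in threat and 0.11 in place libraries. Threat 24 h against place 24 h called 0 of 8 (0% of all genes). Cct8 rose by 0.25 and Cct6a by 0.21 in threat 24 h against threat 1 h (limma adjusted p = 0.00109 and 0.0068) and both were 0.25 higher in naive 5 to 9 (8.7e-04 and 0.00282). Of 16 other J proteins 6 were higher in threat 24 h against threat 1 h (12.5% of all genes) and 4 in place 24 h against place 1 h (6.61%). In naive 5 to 9 against naive 1 to 4, 9 of the 16 were higher (8.61%). Dnaja1, a HSC70 partner, was 0.50 higher in naive 5 to 9 (limma adjusted p = 1.95e-05). Hspa9, the mitochondrial HSP70, rose by 0.29 in threat 24 h against threat 1 h and was 0.32 higher in naive 5 to 9 (limma adjusted p = 0.00127 and 2.06e-04). Among 15 HSP90 cochaperone rows 4 were higher and 2 lower in threat 24 h against threat 1 h (12.5% and 16.8% of all genes). In that comparison Ptges3, the p23 cochaperone, was at 0.20 and Ahsa2 at -0.39 (limma adjusted p = 0.00201 and 5.45e-05). Hsf1 moved the other way from most of these genes. It fell by 0.52 ± 0.08 log2 in threat 24 h against threat 1 h, by 0.39 ± 0.09 in place 24 h against place 1 h, and was 0.43 ± 0.07 lower in naive 5 to 9 than in naive 1 to 4 (SE; limma adjusted p = 2.58e-05, 0.00582 and 6.53e-05). None of the 4 other small heat shock protein rows tested passed in any of these 3 comparisons (29.3%, 13.3% and 19% of all genes called).

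The genes most like each member across the 34 libraries were taken by Pearson r of log2(FPKM + 1), as a description, since the points share libraries, groups and the naive split. For both Hspa8 rows these were the other Hspa8 row (r = 0.94), Dnaja1 (r = 0.94 for chromosome 5 and 0.93 for chromosome 11) and the unnamed row ENSRNOG00000034093. Hsp90ab1 was most like ENSRNOG00000034093 (0.94), Dnaja1 (0.91) and Vcp (0.91). Hspd1 was most like Cct2 (0.85), Psmc2 (0.83) and Wbp5 (0.82). The Hspa1b rows were most like each other (0.90), then Samd4b (0.74) and Jmjd6 (0.74) for ENSRNOG00000045654 and Furin (0.70) and Sesn2 (0.70) for ENSRNOG00000050647. Bag3 was most like Rgcc (0.80), Imp3 (0.78) and Fam214b (0.77), and Hspb1 was most like Fhod1 (0.80), Slc25a1 (0.80) and Trim65 (0.79). Dnajb1 had the weakest leading likeness, 0.73 with Dcun1d2.

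Methylated DNA was measured in bins of 500 nt, and the bin that holds each gene's start showed 2 kinds of member. Hsph1, Dnajb1, Hsp90aa1, Hsp90ab1 and Hspb1 start bins held at most 0.0920 RPKM in any captured library at 1 h, against input means of 0.23 to 0.52 RPKM. Over all genes the median start bin had 0.0287 RPKM captured and 0.344 RPKM in input at 1 h. The 2 rows named Hspa8 went the other way, and because they may not be the Hspa8 gene, these bins are not read as its promoter. The start bin of the chromosome 11 row held 2.97, 2.91 and 2.96 RPKM in threat, 3.08, 1.66, 2.24 and 3.18 in place and 2.39, 2.40 and 3.01 in naive libraries, against an input mean of 0.513 RPKM. The start bin of the chromosome 5 row averaged 2.29 RPKM over captured libraries, 5.29 times its input. Only 9.84% of gene start bins reached the capture level required for testing at 1 h (a captured mean of 1 RPKM and 2 times input). The bin shared by the Hspd1 and Hspe1 starts held 0.644 to 2.26 RPKM in captured libraries at 1 h, against an input mean of 0.439. At 24 h the Hspa8 start bins were still above input, at 0.794 against 0.306 and 0.704 against 0.327 RPKM, and the Hspd1 and Hspe1 bin was below it, at 0.0886 against 0.157. Captured and input values of the 1 h and 24 h libraries differ across the whole genome as well, with a median start bin of 0.0888 captured and 0.248 in input at 24 h, so the times are not compared.

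**Figure D4:**
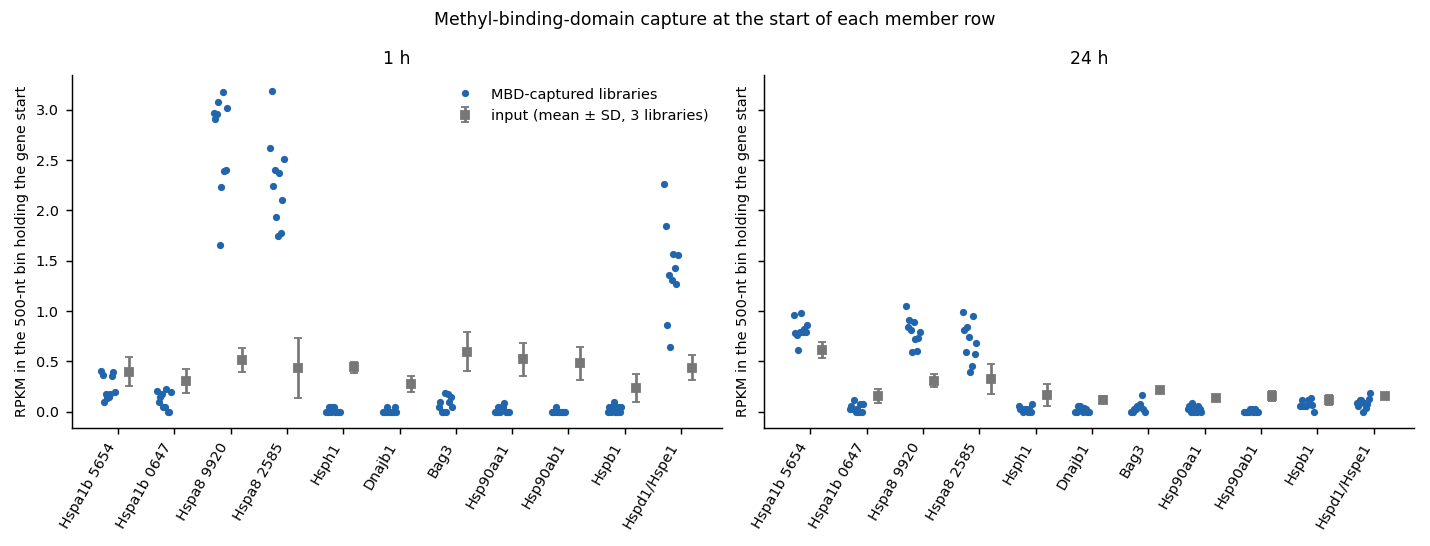
RPKM (vertical axis) in the 500-nt bin that holds the start of each member row, at 1 h (left) and 24 h (right); circles are the 10 captured libraries and squares the mean ± SD of 3 input libraries. The 2 Hspa8 rows stand above input at both times, and the bin shared by Hspd1 and Hspe1 does so at 1 h.

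Capture at the members was compared between groups in 23 bins at 1 h and 5 at 24 h. At 1 h these bins lay in Bag3 (11), Hsph1 (4), the Hspa8 rows (3 each) and the Hspd1 and Hspe1 pair (2, shared). At 24 h they lay in Bag3 (3), Hsph1 (1) and the chromosome 11 Hspa8 row (1). No bin of Hspa1b, Dnajb1, Hsp90aa1, Hsp90ab1 or Hspb1 reached the capture level required for testing at either time. The counts below do not cover these members. At 1 h, 0 bins were called in threat or place against naive or in threat against place, with 0.016%, 0.00285% and 0.0174% of all 350378 bins called. At an unadjusted p under 0.05 those bins numbered 53954, 11719 and 34980 of all bins tested. At 24 h, 0 of 5 bins were called in threat or in place against naive (0.0105% and 0.0082% of 85335 bins). At an unadjusted limma p under 0.05, 19688 and 3649 of all bins tested differed in those comparisons, and 31656 in threat against place. In threat against place 2 of 5 were called, with 7.7% of all bins called. Both lie near the end of the Bag3 gene span, centred 23006 and 23506 nt after its start. The bin chr1:207012001-207012500 held 1.68, 1.66 and 1.34 RPKM in threat libraries and 1.23, 1.06, 0.868 and 0.985 RPKM in place libraries, with naive libraries at 1.23, 1.05 and 1.13. The bin chr1:207012501-207013000 held 2.26, 1.55 and 1.31 RPKM in threat libraries and 1.26, 1.00, 0.756 and 0.985 RPKM in place libraries, with naive libraries at 1.53, 1.24 and 0.942. Threat and place libraries did not overlap in either bin, but the share of all bins that separate in this way is not given here. The differences were 0.49 ± 0.15 and 0.63 ± 0.17 log2 (SE, n = 3 and 4, limma adjusted p = 0.0451 and 0.0351). No call was made under a stricter or a looser capture filter or after quantile normalization, and none when any one of 5 of the 7 libraries was left out. At 1 h the same bins held 2.20 ± 0.19 and 1.23 ± 0.09 RPKM in threat and 2.15 ± 0.18 and 1.4 ± 0.21 RPKM in place libraries (SD). Bag3 mRNA, measured in other libraries, was 0.31 log2 lower in threat than in place libraries at 24 h and did not pass. Its relation to these bins was not tested.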

How the data were processed

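The authors deposited RNA levels as FPKM per gene and MBD levels as RPKM per 500-nt bin. The submitters' processing notes name Bowtie, TopHat 1.4.0, edgeR and DESeq2 as tools and rn5 and mm10 as builds, without roles. RNA libraries were directional and polyA+, per the labels' protocols, but whether counting used strand is not given in the sources used here.

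The 13153 genes that reached 1 FPKM in 5 or more libraries entered a limma 3.58.1 fit with trend (R 4.3.3) on log2(FPKM + 1), with a mean per group or, for the naive blocks, with naive split in 2. Fold changes on this scale understate those of low genes. MBD bins with a captured mean of at least 1 RPKM and 2 times input were fitted per time on log2(RPKM + 0.25). Benjamini-Hochberg adjustment covered all genes or bins, with a threshold of 0.05. The size of a single read gave MBD totals of 39.3 to 49.9 M reads at 1 h and 52.8 to 74.5 M at 24 h. Read intervals cover counting error only, since PCR copies cannot be seen.

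The fits were tested on simulated data. Same-numbered libraries did not deviate together on average (mean r -0.0099 over 58 pairs, from -0.497 to 0.587). A mean near that of other numbers (0.0012 over 399 pairs) cannot exclude pairing by number, and the reported fit used none. The members, their lists and the naive split were chosen with earlier results of these data known. Named genes were all members in every comparison, at most the 3 lowest p-values per list, and the 3 genes most like each member.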

Additional observations from a re-analysis of the deposited data

Results flagged for a closer look

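In all, 10 values stood far from the rest of their group among 84 groups tested, where chance flags about 1 in 20 groups. Place 1 h replicate 3, the library highest in CA2 and CA3 markers, was the highest of its group in 4 rows: Hspa8 on chromosome 11 at 50.4 FPKM (next 39.7), Hspa8 on chromosome 5 at 31.0 (next 25.1), Hsph1 at 78.6 (next 63.4) and Hsp90ab1 at 409 (next 359). The part of that marker difference in these values was not tested. Dnajb1 was highest in threat 24 h replicate 5, at 21.5 FPKM (next 19.0), and lowest in place 24 h replicate 4, at 17.5 (next 20.3). Dnajb1 was also lowest in naive replicate 4, the library lowest in CA1 markers, at 14.2 FPKM (next 17.3). Bag3 was lowest in threat 24 h replicate 3, at 3.22 FPKM (next 4.28). In the place 1 h MBD libraries the start bins of Dnajb1 and of Hsp90ab1 each held 0.0453 RPKM in 1 library and 0 in the others. With 0 in the others any value above 0 is flagged, so the rate of 1 in 20 does not hold for these bins.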

How the results depend on the processing

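Among 2812 recomputed differences of the member rows, 75 passed the threshold only under the alternative, 40 only in the reported fit, and 1 reversed: Hspa8 on chromosome 5 in threat 1 h was -0.15 against naive 5 to 9 alone (limma adjusted p = 0.0365), and 0.02 over all naive libraries. Another 141 uncalled differences changed sign, none larger than 0.13 in the reported fit. Member rows called in threat 1 h over naive (3) became 1 with a filter of 5 FPKM, which tested 10 rows, 1 with only the groups compared, 5 with array weights, 0 against naive 1 to 4 and 6 against naive 5 to 9. For place 1 h over naive (0) they became 1 with array weights and 6 against naive 5 to 9. For threat 24 h over naive (2) they became 0 with quantile normalization, 0 with only the groups compared, 8 against naive 1 to 4 and 0 against naive 5 to 9. For place 24 h over naive (0) they became 4 with array weights and 8 against naive 1 to 4. For place 24 h against place 1 h (2) they became 1 with the 5 FPKM filter and 7 with array weights. MBD bins called at 24 h in threat against place (2) became 0 with a captured mean of 2 RPKM, 0 with 0.5 RPKM and no input minimum, and 0 with quantile normalization. The cause of these shifts was not tested.

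With the replicate number as a block, threat 24 h over naive called 6 rows and place 24 h over naive 2. The check of same-numbered libraries does not settle whether the numbers pair them. Leaving out 1 library gave 2 to 4 calls for threat 1 h over naive, 0 to 1 for place 1 h over naive, 1 to 4 for threat 24 h over naive, 0 to 1 for place 24 h over naive, 6 to 7 for threat 24 h against 1 h, 2 to 3 for place 24 h against 1 h and 5 to 8 between the naive blocks. It gave 0 to 2 for MBD threat against place at 24 h, and 0 in the other MBD comparisons, in threat against place RNA and in the interaction. Counting error at the median count was 7.39% to 7.73% for Hspa1b and Hspb1, and their spread in threat 1 h libraries was wider (40.9% for Hspa1b row ENSRNOG00000045654).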
